A study of Sus scrofa with 26 samples.

Results

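The 10 genes described here, PECAM1, VWF, CDH5, KDR, TEK, NOS3, EDN1, VEGFA, HIF1A and ENG, are expressed by blood vessel endothelium or govern vessel growth and tone. They were chosen by name, among 11773 genes with a symbol on the array, by matching the gene name, accession or description that the array files give for each probe that is not a control. Together they had 31 probes: 4 each for PECAM1, HIF1A, TEK and VEGFA, 3 each for KDR, NOS3 and VWF, and 2 each for CDH5, EDN1 and ENG. All 31 passed the filter on dim probes, and 30 of them were well above background on all 26 arrays. VEGFA probe O11835 was well above background on 23 arrays.

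The RNA came from pig subcutaneous adipose tissue (SCAT), one castrated male per one-colour array. Creole pigs, Large White pigs (LW) and their cross (F1) were killed either at thermoneutrality (TN, labelled 24 °C) or after heat (HS, labelled 30 °C, and given as 32 °C for 5 days in the series text and for 4 or 5 days in the study's methods). The groups were Creole TN (n = 3), Creole HS (n = 5), F1 TN (n = 4), F1 HS (n = 5), LW TN (n = 4) and LW HS (n = 5). No group carried a drug or an engineered allele, and TN pigs were killed before the temperature rise, so that temperature, slaughter day and age cannot be told apart.

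Endothelial cells line the vessels of adipose tissue. PECAM1 (CD31) and CDH5 (VE-cadherin) sit at their junctions, VWF is the clotting protein they store, and ENG (endoglin) is a co-receptor for BMP and TGF-beta ligands. KDR (VEGFR2) is the main signalling receptor for the growth factor VEGFA, and TEK (TIE2) is the receptor for angiopoietins. NOS3 makes the vasodilator nitric oxide, EDN1 is the precursor of the vasoconstrictor endothelin, and HIF1A is the oxygen-regulated subunit of a transcription factor whose best known targets include VEGFA.

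Each array value is the median pixel intensity of a probe, quantile-normalized and on a log2 scale, and is called its level here. Levels of different probes are not comparable, so each probe was compared only with itself across animals. The lead probe of a gene is its tested probe with the highest mean level. Tests were made with limma over all 44703 tested probes, with breed and temperature as fixed effects, and a probe was called at a Benjamini-Hochberg adjusted p under 0.05. The HS minus TN and breed differences given with a standard error (SE) are those of the fit. By the study's methods, each breed was made up of blocks of littermates, and pigs shared pens. Litter and pen are not in the labels, so all tests here treat the animals as independent.

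Between 68.5% and 76.6% of the probes were well above background on an array and no spot was saturated, and the number of animals limits the precision. The tissue label fitted its markers: all 7 adipocyte markers tested (ADIPOQ, PLIN1 and others) were well above background on every array. Whole adipose tissue was measured, so fewer cells of a type and less RNA per cell cannot be told apart. A score of the red cell markers stood apart by temperature, though 2 of its 7 genes were called. The mean of their 7 log2 levels, each centred on its own mean, ran from 0.05 to 0.38 in TN and from -0.47 to 0.21 in HS, and 12 of 15 HS arrays lay below the lowest TN array.

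The probes that carry the results are shown by sequence, 5′ to 3′. For VEGFA, capitals mark 38 bases in A_72_P414353, the lead probe, whose reverse complement is in capitals in O11835, so that these probes read opposite strands over that stretch.
VEGFA A_72_P414353: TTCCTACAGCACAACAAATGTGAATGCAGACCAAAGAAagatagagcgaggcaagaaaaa
VEGFA O11835: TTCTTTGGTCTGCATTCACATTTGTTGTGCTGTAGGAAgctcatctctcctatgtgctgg
VEGFA A_72_P441494: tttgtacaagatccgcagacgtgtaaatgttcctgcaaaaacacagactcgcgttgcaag
VEGFA A_72_P443769, first 30 bases: atgttattggtgtcttcactggatgtattt

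For KDR, whose probes differ in what they show of breed, and for CDH5, called with both of its probes, the first 30 of 60 bases are given.
KDR A_72_P380298: tctacatcatagtaaaagcggatttggttt
KDR A_72_P442740: ttcaagtgttgttctttccaccgccaggaa
KDR O306: attatgtacatagttgtggttgtagggtac
CDH5 A_72_P077856: gtggtaattgctttaatgataatgactata
CDH5 A_72_P310398: acatctttcagcaacggctactcacaaaat

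The files place A_72_P380298 at base 5127 and A_72_P442740 at base 4131 of their KDR transcripts, the CDH5 probes at bases 3795 and 2623, and the VEGFA probes A_72_P414353, A_72_P441494 and A_72_P443769 at bases 366, 462 and 1648. They do not say which exon, or which coding or untranslated part, each probe reads. In RefSeq's Sscrofa11.1 annotation, KDR lies at chr8:41809116-41856379, CDH5 at chr6:27108560-27142145 and VEGFA at chr7:38746393-38762282. The other genes lie at chr12:14667643-14723296 (PECAM1), chr5:64516627-64655938 (VWF), chr1:268309379-268343861 (ENG), chr1:195938177-196052294 (TEK), chr18:6209218-6228912 (NOS3), chr7:8752018-8758354 (EDN1) and chr1:190625436-190673926 (HIF1A). The probes were not aligned to that assembly here. The HIF1A probes A_72_P280249 and O277 nearly coincide, sharing a run of 57 bases (in capitals) of their 60. Their first 30 bases are shown because they read nearly the same stretch, though each is counted among the 31 probes.
HIF1A A_72_P280249: gtTGGATCTAACACTAACTGTATTGTTTTG
HIF1A O277: TGGATCTAACACTAACTGTATTGTTTTGTT

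The first comparison asked how these genes differed between HS and TN animals. CDH5 fell with both probes, VEGFA rose with its lead probe, and 1 further probe each of KDR and PECAM1 fell. Of the 31 probes, 5 were called, or 16.1%, beside 12.2% of all tested probes. One was higher in HS (5.16% of all probes were called higher) and 4 were lower (7.02% of all probes). By lead probes, 2 of 10 genes were called, CDH5 lower and VEGFA higher. The median difference was -0.09 over the 31 probes and -0.10 over the 10 lead probes, and 24 of 31 differences were below 0, while the median over all tested probes was 0.0024.

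**Figure D1:**
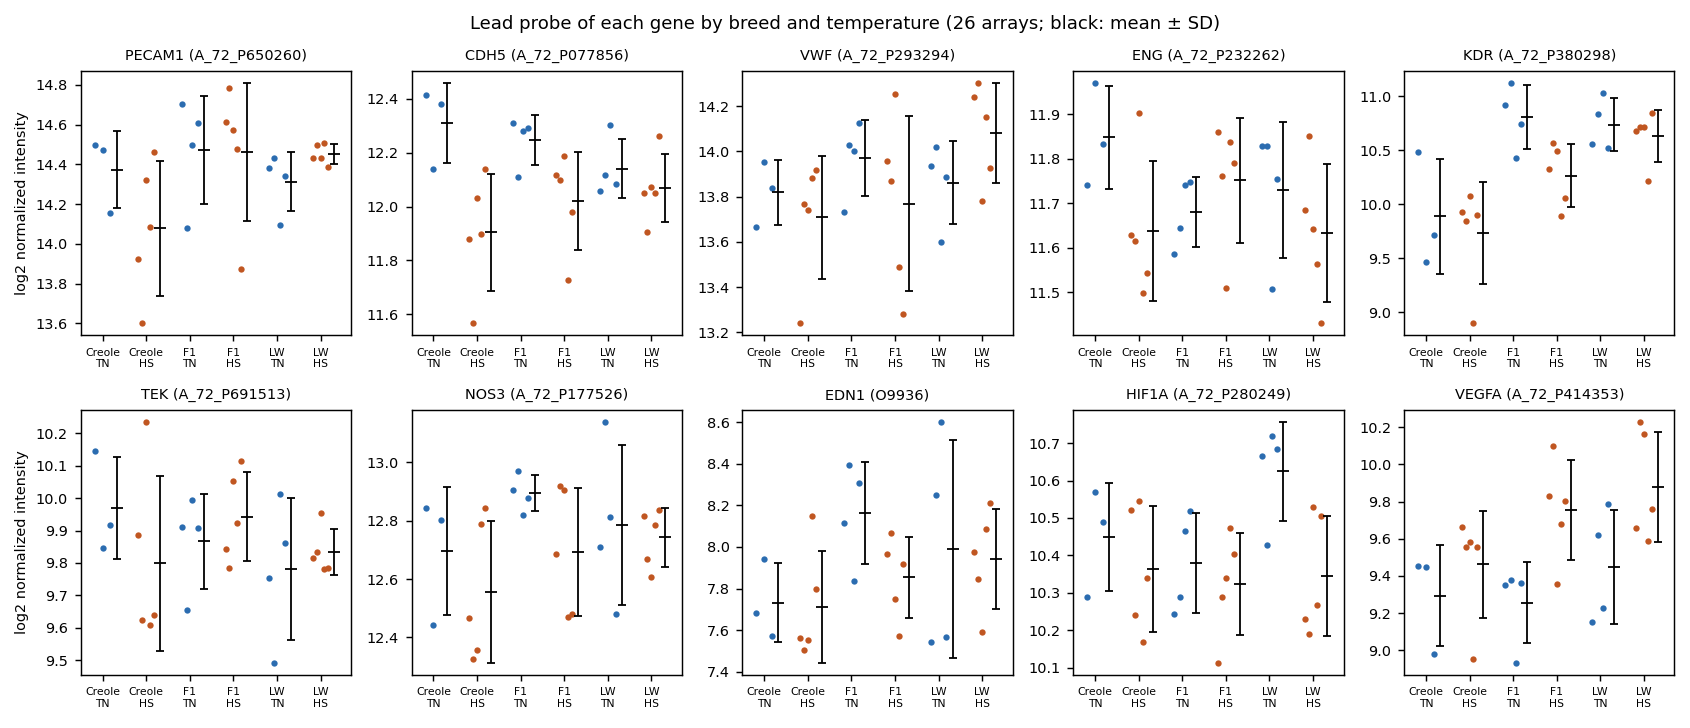
Log2 normalized intensity of the lead probe of each of the 10 genes, one point per animal, by breed and temperature, with mean ± SD in black. CDH5 has a lower mean in HS than in TN in each breed, and VEGFA a higher one. Within single breeds no lead probe was called. The KDR lead probe separates Creole from LW more than it separates the temperatures.

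Among the junction and surface proteins, CDH5 was called with both probes and PECAM1 with 1 of 4. The CDH5 lead probe stood at 12.41, 12.14 and 12.38 in Creole TN and at 11.88, 11.57, 12.03, 11.90 and 12.14 in Creole HS. In F1 it read 12.31, 12.11, 12.28 and 12.29 in TN against 12.12, 12.10, 12.19, 11.73 and 11.98 in HS. LW animals gave 12.06, 12.12, 12.30 and 12.09 in TN and 12.05, 11.91, 12.07, 12.05 and 12.26 in HS. The ranges overlapped, yet 14 of 15 HS animals lay below the TN mean of their breed and 9 lay below the lowest TN animal of all. The TN animals averaged 12.23 ± 0.13 (SD, n = 11), and the HS animals 11.998 ± 0.18 (SD, n = 15). The difference was -0.23 (SE 0.07, 1.17-fold lower, limma adjusted p = 0.0254).

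The second CDH5 probe, A_72_P310398, which shares no stretch of over 5 bases with the first, averaged 7.90 ± 0.24 over TN animals (SD, n = 11) and 7.66 ± 0.15 over HS animals (SD, n = 15), for a difference of -0.24 (SE 0.07, limma adjusted p = 0.0272). Here 12 of 15 HS animals lay below their breed's TN mean. TN and HS means were 7.94 ± 0.14 and 7.67 ± 0.14 in Creole (SD, n = 3 and 5), 8.11 ± 0.16 and 7.68 ± 0.19 in F1 (SD, n = 4 and 5), and 7.66 ± 0.13 and 7.65 ± 0.14 in LW (SD, n = 4 and 5). Within slides, the HS minus TN difference of the CDH5 lead probe was below 0 on each of the 5 slides, at -0.26, -0.41, -0.07, -0.28 and -0.13. The call of the lead probe was lost without Creole TN replicate 1 (adjusted p = 0.0541) or replicate 3 (adjusted p = 0.0532), and the call of A_72_P310398 without Creole TN replicate 1 (adjusted p = 0.0515) or F1 TN replicate 1 (adjusted p = 0.0570).

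PECAM1 had 1 of 4 probes called, and its probes differed in direction. The lead probe ranged from 14.08 to 14.70 with a median of 14.43 in TN and from 13.60 to 14.78 with the same median, 14.43, in HS, so that the HS animals spread on both sides of the TN animals. Its difference was -0.04 (SE 0.10, adjusted p = 0.831). PECAM1 probe A_72_P077376 fell, from 11.49 ± 0.22 (SD, n = 11) to 11.31 ± 0.17 (SD, n = 15), by -0.17 (SE 0.06, limma adjusted p = 0.0493), with 13 of 15 HS animals below the TN mean of their breed. That call was the closest to the threshold: it held in 7 of the 26 fits that left out 1 array. It was also lost with no filter on dim probes (limma adjusted p = 0.0655), without the breed term (0.157) and without the eBayes trend (0.0501). PECAM1 A_72_P446708 differed by -0.11 (SE 0.05, adjusted p = 0.107) and A_72_P218027 by 0.10 (SE 0.06, adjusted p = 0.295), the latter with 12 of 15 HS animals above their breed's TN mean.

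VWF gave no call with any of its 3 probes. The lead probe ran from 13.60 to 14.12 with a median of 13.94 in TN, and from 13.24 to 14.30 with a median of 13.88 in HS, the HS animals lying on both sides of the TN range. Its difference was -0.03 (SE 0.10, adjusted p = 0.895), with a 95% interval from -0.23 to 0.18. ENG was likewise not called: its lead probe averaged 11.74 ± 0.13 over TN animals (SD, n = 11) and 11.67 ± 0.15 over HS animals (SD, n = 15), for a difference of -0.07 (SE 0.06, adjusted p = 0.479), with O6159 at -0.12 (SE 0.06, adjusted p = 0.187). The 6 group means of the lead probe ran from 13.71 ± 0.27 (SD, n = 5) in Creole HS to 14.08 ± 0.22 (SD, n = 5) in LW HS for VWF. For ENG they ran from 11.63 ± 0.15 (SD, n = 5) in LW HS to 11.85 ± 0.12 (SD, n = 3) in Creole TN.

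Of the receptor kinases, KDR had 1 of 3 probes called lower in HS and TEK had none of 4 called. The KDR lead probe had its TN animals between 9.47 and 11.12 (median 10.56) and its HS animals between 8.90 and 10.84 (median 10.22). The ranges overlapped in each breed, but only over a short stretch in F1, with TN from 10.43 to 11.12 and HS from 9.89 to 10.56. The difference over all breeds, -0.27 (SE 0.13, adjusted p = 0.187), was not called, nor was that within F1, -0.54. KDR A_72_P442740, whose spread was narrower, fell from 8.90 ± 0.22 (SD, n = 11) to 8.64 ± 0.18 (SD, n = 15), by -0.26 (SE 0.08, 1.20-fold lower, limma adjusted p = 0.0324). KDR O306 differed by -0.17 (SE 0.07, adjusted p = 0.0877), with 12 of 15 HS animals below the TN mean of their breed. Without 1 of the 3 Creole TN animals, of F1 TN replicates 1 and 2 or of F1 HS replicate 3, A_72_P442740 was not called, at adjusted p from 0.0540 to 0.0697. With all probes of KDR averaged before the fit, the gene was called lower, by -0.24 (adjusted p = 0.0433).

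Both temperatures gave the TEK lead probe the same mean, 9.86 ± 0.18 (SD, n = 11 TN and n = 15 HS), for a difference of -0.01 (SE 0.07, adjusted p = 0.973). Its 95% interval, from -0.15 to 0.14, does not reach the VEGFA difference given below. The other TEK probes differed by -0.02, 0.07 and -0.01.

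The tone genes NOS3 and EDN1 were not called. NOS3 averaged 12.80 ± 0.20 over TN animals (SD, n = 11) and 12.66 ± 0.20 over HS animals (SD, n = 15), and differed by -0.13 (SE 0.08, adjusted p = 0.291), and its other probes by -0.11 and -0.16. When arrays were scaled to their 75th percentile in place of quantile normalization, the NOS3 lead probe was called lower, by -0.23 (adjusted p = 0.0380). The EDN1 lead probe ran from 7.54 to 8.60 (median 7.94) in TN and from 7.50 to 8.21 (median 7.85) in HS, with a difference of -0.13 (SE 0.11, adjusted p = 0.484). EDN1 A_72_P077871 gave -0.17 (SE 0.11, adjusted p = 0.340). TN animals thus included the highest EDN1 values, but the ranges lay over each other.

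VEGFA was the only gene of the 10 whose lead probe rose. Its levels were 9.45, 9.45 and 8.98 in Creole TN against 9.67, 9.55, 9.58, 8.95 and 9.55 in Creole HS. F1 animals had 9.35, 9.38, 8.93 and 9.36 in TN and 9.83, 10.1, 9.35, 9.68 and 9.80 in HS. LW animals had 9.15, 9.62, 9.23 and 9.79 in TN and 9.66, 10.23, 10.16, 9.59 and 9.76 in HS. Of the 15 HS animals, 14 lay above the TN mean of their breed and 5 above the highest TN animal, while Creole HS replicate 4 was below every other HS animal. Means were 9.34 ± 0.25 over the TN animals (SD, n = 11) and 9.70 ± 0.32 over the HS animals (SD, n = 15), and the VEGFA difference was 0.38 (SE 0.11, 1.30-fold higher, limma adjusted p = 0.0200). On the 5 slides the lead probe was higher in HS by 0.56, 0.27, 0.42, 0.21 and 0.40. It was called in all 26 fits that left out 1 array, at adjusted p from 0.0066 to 0.0424.

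The other VEGFA probes that read the same strand differed in the same direction without a call: A_72_P441494 by 0.18 (SE 0.10, adjusted p = 0.247) and A_72_P443769 by 0.17 (SE 0.11, adjusted p = 0.323), each with 12 of 15 HS animals above their breed's TN mean. The opposite-strand O11835 averaged 5.92 ± 0.17 over TN animals (SD, n = 11) and 5.86 ± 0.12 over HS animals (SD, n = 15), and differed by -0.06 (SE 0.06, adjusted p = 0.587). With the 4 probes averaged before the fit VEGFA was not called, at 0.17 (adjusted p = 0.167).

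**Figure D2:**
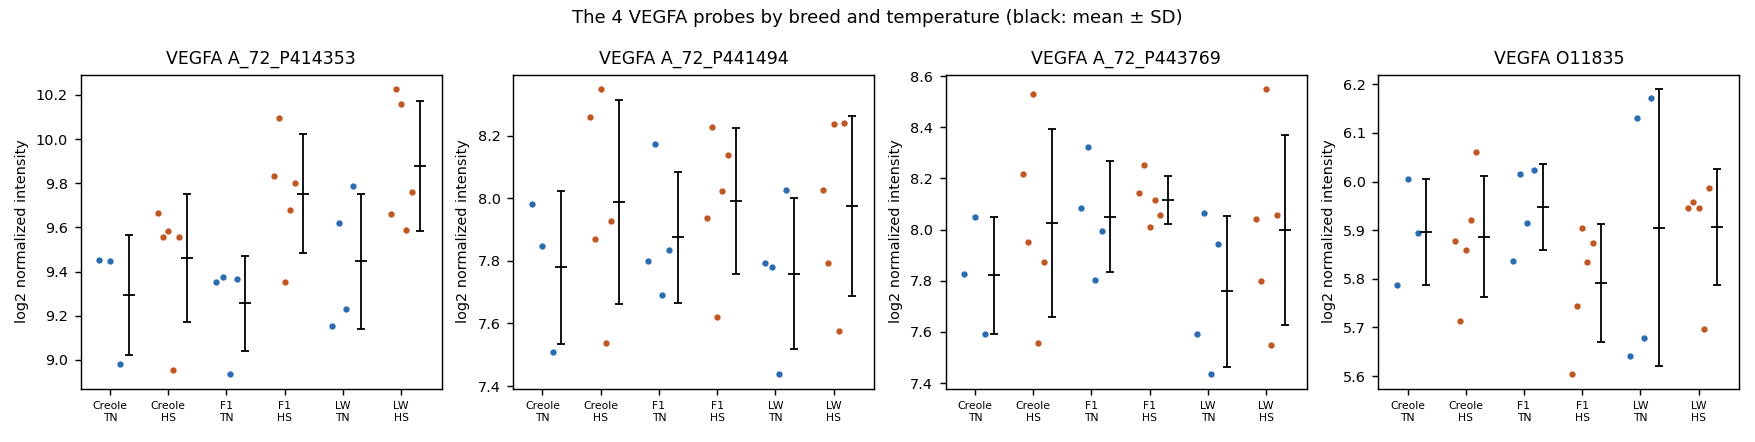
Log2 normalized intensity of the 4 VEGFA probes by breed and temperature, one point per animal, with mean ± SD in black and a separate vertical scale for each probe. A_72_P414353 has a higher mean in HS in each breed, and A_72_P441494 and A_72_P443769 are higher in HS with more overlap. O11835, which reads the other strand, shows no such order.

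HIF1A gave no call. Its lead probe ranged from 10.24 to 10.72 (median 10.49) in TN and from 10.11 to 10.55 (median 10.34) in HS, with 11 of 15 HS animals below the TN mean of their breed. The difference was -0.14 (SE 0.06, adjusted p = 0.129). The nearly identical O277 gave -0.09, A_72_P213487 gave -0.13 and A_72_P585741 gave 0.03, none of them called. Among the 6 groups, LW TN had the highest HIF1A mean, 10.62 ± 0.13 (SD, n = 4), and the other 5 lay between 10.32 ± 0.14 (SD, n = 5) in F1 HS and 10.45 ± 0.14 (SD, n = 3) in Creole TN.

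**Figure D3:**
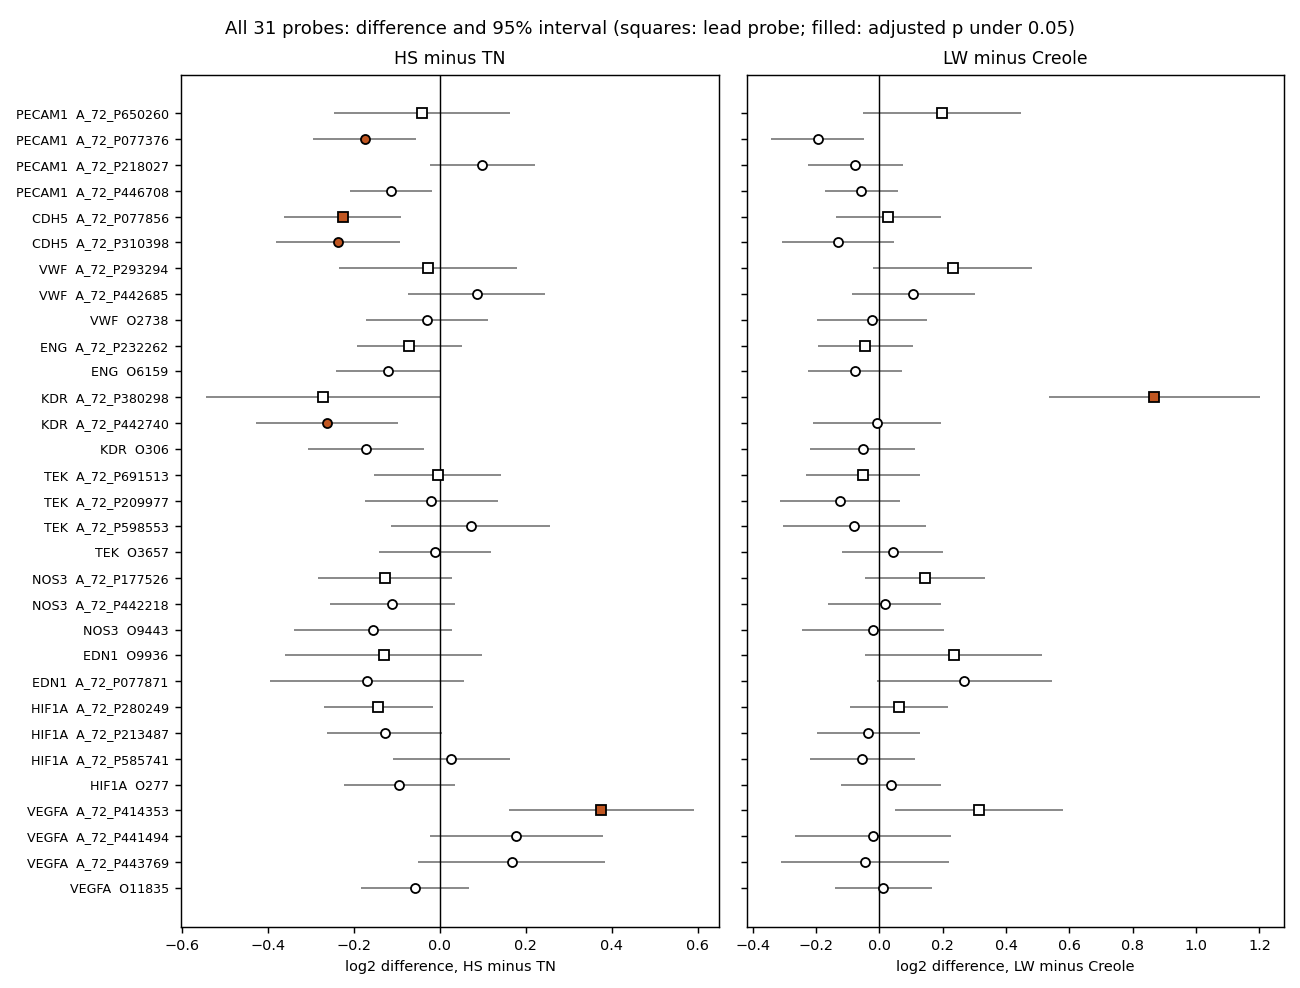
Log2 difference of each of the 31 probes with its 95% interval, for HS minus TN (left) and LW minus Creole (right). Probes are grouped by gene, lead probes are squares and called probes are filled. For HS minus TN, the called probes are both of CDH5, A_72_P442740 of KDR, A_72_P077376 of PECAM1 and A_72_P414353 of VEGFA, and 24 of 31 differences lie below 0. For LW minus Creole, only A_72_P380298 of KDR is called.

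A set of 7 further spots on the array held exactly the 60 bases of a member's probe under a name that gives no gene, so they were not counted as members. They measure the same RNA again, not further animals. Across the 26 arrays their levels correlated with those of the member probe at r from 0.789 to 0.961, and 6 of 7 had the same call for HS minus TN. The CDH5 lead sequence gave -0.22 (SE 0.06, adjusted p = 0.0194) on this second spot, and the PECAM1 A_72_P077376 sequence gave -0.19 (SE 0.05, adjusted p = 0.0235). The spot that differed in its call was that of VEGFA A_72_P441494, where the same 60 bases gave 0.28 (SE 0.08, adjusted p = 0.0317) against 0.18 and no call on the named probe.

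The fall of the red cell score with temperature was set beside these results. With the score added to the model, 42 of the 44703 tested probes were called for HS minus TN, and none of the 10 lead probes. CDH5 A_72_P310398 (limma adjusted p = 0.338) and PECAM1 A_72_P077376 (0.469) also lost their calls. The CDH5 lead probe then had -0.27 (adjusted p = 0.258), that of VEGFA 0.28 (adjusted p = 0.495) and KDR A_72_P442740 -0.35 (adjusted p = 0.214), so the directions stayed and the calls did not. Within groups, over 26 arrays with group means removed, the score and the lead probe had r = -0.02 for CDH5 and -0.14 for VEGFA, and the r of the 10 genes ran from -0.46 for VWF and -0.37 for KDR to 0.22 for EDN1. In the fit with the score, the uncalled difference of VWF went from -0.03 to -0.26 and that of the KDR lead probe from -0.27 to -0.49, still without a call. Since the score and temperature move together, their parts in the differences cannot be told apart in this design.

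**Figure D4:**
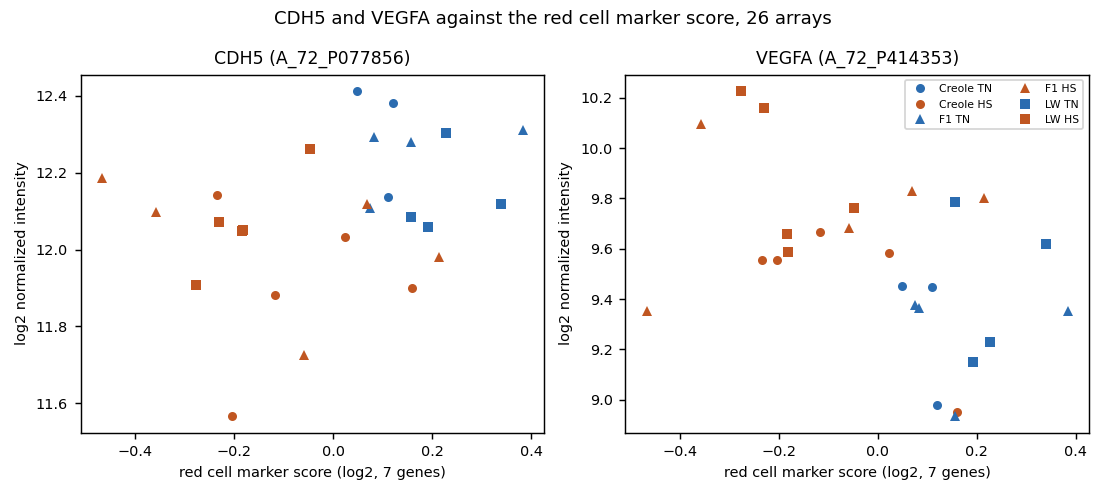
Red cell score (mean centred log2 level of 7 red cell markers) on the horizontal axis against the level of the CDH5 and VEGFA lead probes, one point per animal, coloured by temperature. HS animals sit to the left, with 12 of 15 below the lowest TN score of 0.05, and within a temperature neither gene follows the score.

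The second comparison asked whether the genes differed between the breeds. KDR differed between LW and Creole with 1 of its 3 probes, and PECAM1 differed between F1 and LW with 2 of its 4. Between LW and Creole, 1 of 31 probes (1 of 10 lead probes) was called, beside 14.3% of all tested probes. The KDR lead probe was 10.49, 9.47 and 9.72 in Creole TN and 9.93, 9.85, 10.08, 8.90 and 9.90 in Creole HS. LW animals had 10.56, 10.84, 11.03 and 10.52 in TN and 10.67, 10.72, 10.71, 10.22 and 10.84 in HS, so that 8 of 9 LW animals lay above the highest Creole animal. F1 animals spanned 9.89 to 11.12, with a median of 10.49. Means were 9.79 ± 0.46 (SD, n = 8) in Creole, 10.50 ± 0.39 (SD, n = 9) in F1 and 10.68 ± 0.23 (SD, n = 9) in LW.

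The KDR lead probe was higher in LW than in Creole by 0.87 (SE 0.16, 1.83-fold, limma adjusted p = 0.00135), and in every fit that left out 1 array the difference stayed between 0.76 and 0.95 and was called. F1 minus Creole was 0.69 (SE 0.16, adjusted p = 0.0644) and F1 minus LW was -0.17 (SE 0.16, adjusted p = 0.562). In the order of the 6 group means, Creole HS (9.73 ± 0.47) and Creole TN (9.89 ± 0.53) came lowest, then F1 HS (10.27 ± 0.29), LW HS (10.63 ± 0.24), LW TN (10.74 ± 0.24) and F1 TN (10.80 ± 0.30), and neighbours lay within the SD of the wider one, except F1 HS and LW HS. The other KDR probes did not show this breed difference. A_72_P442740 differed between LW and Creole by -0.01 (SE 0.10, 95% interval -0.21 to 0.20) and O306 by -0.05 (SE 0.08, 95% interval -0.22 to 0.11). Their intervals exclude a difference of the size found with A_72_P380298, and with the 3 probes averaged before the fit the LW minus Creole difference of KDR was 0.27 (adjusted p = 0.0518) and not called.

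**Figure D5:**
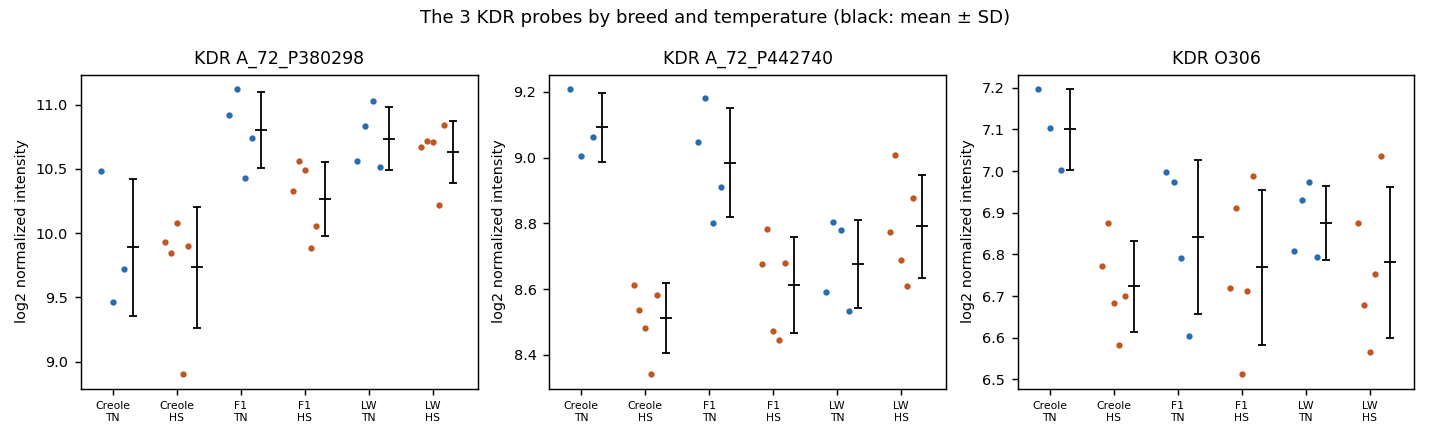
Log2 normalized intensity of the 3 KDR probes by breed and temperature, one point per animal, with mean ± SD in black and a separate vertical scale for each probe. Creole animals are lowest with A_72_P380298 alone, while A_72_P442740 separates TN from HS in Creole and F1 but not in LW.

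The remaining lead probes gave no call between LW and Creole. The largest difference among them was that of VEGFA, 0.31 (SE 0.13, adjusted p = 0.103). EDN1 (0.23, SE 0.14, adjusted p = 0.261), VWF (0.23, SE 0.12, adjusted p = 0.215), PECAM1 (0.20, SE 0.12, adjusted p = 0.295) and NOS3 (0.14, SE 0.09, adjusted p = 0.316) differed without a call. HIF1A, CDH5, ENG and TEK lay between -0.05 and 0.06.

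Between F1 and LW, 2 of 31 probes were called, both of PECAM1 and both higher in F1, beside 4.24% of all tested probes. A_72_P446708 was 9.93 ± 0.08 (SD, n = 9) in F1, from 9.78 to 10.02, and 9.66 ± 0.07 (SD, n = 9) in LW, from 9.51 to 9.72. The F1 and LW animals did not overlap, though the share of all tested probes without such overlap was not counted. The difference was 0.27 (SE 0.05, limma adjusted p = 0.0109). A_72_P077376 was 11.52 ± 0.14 (SD, n = 9) in F1 and 11.23 ± 0.11 (SD, n = 9) in LW, with overlapping ranges and a difference of 0.30 (SE 0.07, limma adjusted p = 0.0204). With slide as a fixed block its adjusted p was 0.0552. The PECAM1 lead probe did not differ between F1 and LW in the same way, at 14.47 ± 0.30 and 14.39 ± 0.12 (SD, n = 9 each).

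Between F1 and Creole limma called 0 of 31 probes, beside 0.262% of all tested probes, and 4 of the 31 had an unadjusted p under 0.05. In the test over all 3 breeds, 3 of 31 probes were called, beside 11.3% of all tested probes: KDR A_72_P380298 (adjusted p = 0.0031), PECAM1 A_72_P446708 (adjusted p = 0.00573) and PECAM1 A_72_P077376 (adjusted p = 0.0160). These breed comparisons share their animals and are not separate support for each other.

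The third comparison asked whether the heat response differed with breed. Within Creole, 1 of 31 probes was called, KDR A_72_P442740, beside 0.0716% of all tested probes. Its Creole TN animals had 9.21, 9.0 and 9.06 and its Creole HS animals 8.61, 8.54, 8.48, 8.34 and 8.58. Every HS animal was below every TN animal, but how often other probes separate groups this small was not counted. The difference was -0.58 (SE 0.11, limma adjusted p = 0.0461). In F1 this probe went from 8.98 ± 0.17 (SD, n = 4) to 8.61 ± 0.15 (SD, n = 5), a difference of -0.37 (SE 0.10, adjusted p = 0.0814). LW animals averaged 8.68 ± 0.13 at TN (SD, n = 4) and 8.79 ± 0.16 under HS (SD, n = 5), for a difference of 0.11 (SE 0.10, adjusted p = 0.611). The interaction of breed and temperature for this probe had an unadjusted p of 0.000215 and an adjusted p of 0.876, so the test of the difference between breeds did not pass over all probes.

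Within F1 limma called 0 of 31 probes, beside 0.421% of all tested probes, with 8 at an unadjusted p under 0.05. Within LW it called 0 of 31, beside 1.5%, with 5 at an unadjusted p under 0.05. For the interaction it called 0 of 31, beside 0.00224%, with 5 probes and no lead probe at an unadjusted p under 0.05. The CDH5 lead probe differed by -0.41 in Creole (SE 0.12), -0.23 in F1 (SE 0.11) and -0.07 in LW (SE 0.11), and VEGFA by 0.17 (SE 0.19), 0.50 (SE 0.18) and 0.43 (SE 0.18). Neither set of within-breed differences passed the interaction test (adjusted p = 0.897 for CDH5 and 0.914 for VEGFA). The Creole call of KDR A_72_P442740 held in 9 of 26 fits that left out 1 array, and its adjusted p was 0.170 without Creole TN replicate 3.

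Probes of one gene varied together to different degrees. Over the 26 arrays with group means removed, the pairs of ENG probes (r = 0.88), EDN1 probes (r = 0.80) and NOS3 probes (r from 0.62 to 0.77) were close. The 3 same-strand VEGFA probes had r from 0.67 to 0.83 with each other and from 0.27 to 0.36 with O11835. TEK probes spanned 0.48 to 0.91, KDR probes 0.33 to 0.70, VWF probes 0.25 to 0.61 and PECAM1 probes 0.10 to 0.74. The CDH5 probes, both called lower, had r = 0.35. HIF1A A_72_P585741 had r of at most 0.28 with the other HIF1A probes, which had r from 0.60 to 0.86 among themselves.

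Between genes, the 45 pairs of lead probes were compared over the 26 animals with group means removed, and none passed the permutation test after Benjamini-Hochberg adjustment (smallest adjusted p = 0.303 for Pearson's r and 0.143 for Spearman's rho). The median r was 0.07 and 26 pairs were positive. The highest pair was CDH5 and NOS3 (r = 0.55, permutation p = 0.0134, rho = 0.58, permutation p = 0.0102), with r = 0.44 after the 2 animals farthest from the CDH5 median were left out. HIF1A and NOS3 were the lowest (r = -0.49, permutation p = 0.0232, rho = -0.49, permutation p = 0.0255), with r = -0.53 after the same step for HIF1A. The ligand VEGFA and its receptor KDR had r = 0.45 (permutation p = 0.0446), rho = 0.35 (permutation p = 0.109), and r = 0.37 without 2 animals.

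The genes most like each member were sought among 10104 other genes, one tested probe each, by r over the 26 arrays with group means removed. NOS3 had the closest, F11R (r = 0.88), a junction protein, with PAN3 (0.85) and RBPMS (0.84) after it. KDR was most like CPNE3 (0.85), VWF most like NDRG2 (0.81), EDN1 most like CCDC22 (0.82), HIF1A most like TAF2 (0.81) and TEK most like RARB (0.80), a retinoic acid receptor. ENG was nearest to ACTR1A (0.79) and LEP (0.79), the adipocyte hormone leptin. CDH5 was nearest to RAPGEF5 (0.79), PECAM1 to HSD3B1 (0.73) and VEGFA to SEMA5A (0.73). The arrays share slides and scans, and these are the top values of many, so they are a description only.

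Further endothelial genes gave the setting. Of 32 other endothelial markers, 27 were tested, and 3 of them were called lower in HS and none higher, a share near that over all tested probes (7.02% lower and 12.2% in all). They were ICAM2 (-0.25, SE 0.07, adjusted p = 0.0306, lower in 13 of 15 HS animals than their breed's TN mean), FLT1 (-0.21, SE 0.07, adjusted p = 0.0357, 14 of 15), the other main VEGF receptor, and SELE, the adhesion molecule E-selectin. SELE was well above background on 9 of 26 arrays, so the size of its difference is uncertain: it was -0.37 (SE 0.11, adjusted p = 0.0223) and became -1.06 with 75th percentile scaling and -0.27 (adjusted p = 0.0657) with its probes averaged. The ICAM2 call held in 20 of 26 fits that left out 1 array. The FLT1 call held in 15 of 26 fits that left out 1 array and in 7 of 12 other settings, and with its probes averaged the difference was -0.12 (adjusted p = 0.186). The median over the 27 was 0.01, beside 0.0024 over all tested probes. Between LW and Creole, PLVAP (0.56, SE 0.13, adjusted p = 0.0051) and THBD (0.48, SE 0.11, adjusted p = 0.0048) were higher in LW and CD36 was lower (-0.23, SE 0.07, adjusted p = 0.0339). With the probes of a gene averaged, THBD was 0.14 (adjusted p = 0.377) and CD36 was -0.14 (adjusted p = 0.189), neither of them called. The 4 lymphatic endothelial markers tested gave no call for HS minus TN, with a median of 0.13.

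In the VEGF and angiopoietin list, 16 of 19 genes were tested, 1 rose and 1 fell, a share like the 12.2% over all tested probes. The counts of 1 gene in each of the nitric oxide, tone and HIF pathway lists below are likewise no more than that share. VEGFB, a VEGF family ligand of FLT1, rose in HS by 0.19 (SE 0.05, adjusted p = 0.0224, 14 of 15 HS animals), and FLT1 was the one that fell. With 75th percentile scaling VEGFB was 0.06 (adjusted p = 0.454) and not called. VEGFB was lower in LW than in Creole by -0.24 (SE 0.07, adjusted p = 0.0147). None of the 10 endoglin and BMP signalling genes tested, of 14, was called for either comparison, and their HS minus TN median was -0.04.

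Among the nitric oxide and cyclic GMP genes, 11 of 16 were tested and DDAH2 rose, by 0.34 (SE 0.06, adjusted p = 0.0008, 15 of 15 HS animals). DDAH2 breaks down methylarginines that inhibit nitric oxide synthases. With its probes averaged the difference was 0.15 (adjusted p = 0.0864) and not called. ASS1, which regenerates arginine, was higher in LW than in Creole by 0.62 (SE 0.13, adjusted p = 0.0033) and DDAH1 lower by -0.39 (SE 0.13, adjusted p = 0.0392), the latter called in 15 of 26 fits that left out 1 array. Of the 26 endothelin, angiotensin and other tone genes, 23 were tested and EDNRB, a receptor for EDN1, fell by -0.41 (SE 0.10, adjusted p = 0.0107, 14 of 15 HS animals). Angiotensin-converting enzyme ACE was higher in LW by 0.37 (SE 0.08, adjusted p = 0.0053).

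Of the HIF pathway genes, 9 of 13 were tested, and EGLN2, an oxygen-dependent prolyl hydroxylase of HIF subunits, rose in HS by 0.21 (SE 0.04, adjusted p = 0.0031, 14 of 15 HS animals), or by 0.10 (adjusted p = 0.141) and without a call with 75th percentile scaling. HIF3A was higher in LW than in Creole by 0.78 (SE 0.24, adjusted p = 0.0290) and HIF1AN lower by -0.24 (SE 0.07, adjusted p = 0.0278). These calls held in 21 and 22 of 26 fits that left out 1 array. With its probes averaged HIF1AN was -0.18 (adjusted p = 0.0665) and not called. Of 19 other known HIF target genes, 17 were tested and had a median of -0.18. For HS minus TN, 3 were called lower and 1 higher, beside 7.02% lower and 5.16% higher over all tested probes. The glycolytic enzymes PGK1 (-0.48, SE 0.09, adjusted p = 0.0010, 15 of 15) and ENO1 (-0.28, SE 0.08, adjusted p = 0.0252, 14 of 15) fell, as did the stress gene DDIT4 (-0.60, SE 0.18, adjusted p = 0.0280, 13 of 15). P4HA2, a collagen prolyl hydroxylase, rose by 0.54 (SE 0.12, adjusted p = 0.0042, 14 of 15). Between LW and Creole, PDK1 (-0.48, adjusted p = 0.0188), PGK1 (-0.37, adjusted p = 0.0213), ALDOA (-0.36, adjusted p = 0.0344) and ENO1 (-0.29, adjusted p = 0.0491) were called lower in LW, and none was called higher. These 4 of 17 stand beside 14.3% of all tested probes, and the median LW minus Creole difference of the list was 0.05. The ENO1 call held in 6 of 26 fits that left out 1 array and that of ALDOA in 16 of 26.

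Calls among the markers of other cells that adipose tissue holds are read against 12.2% of all tested probes (5.16% higher and 7.02% lower) for HS minus TN and 14.3% for LW minus Creole. RGS5, a pericyte gene, fell in HS by -0.29 (SE 0.08, adjusted p = 0.0249), 1 call among 13 pericyte and smooth muscle markers, whose median was 0.12, and ABCC9 was lower in LW than in Creole by -0.95 (SE 0.23, adjusted p = 0.0079). Of 8 fibroblast markers 4 rose in HS and none fell, among them COL1A2 (0.42, SE 0.13, adjusted p = 0.0281) and DCN (0.36, SE 0.10, adjusted p = 0.0218), and 4 were higher in LW than in Creole. All 4 HS calls of fibroblast markers were lost with 75th percentile scaling, where the differences were 0.14 to 0.32 (adjusted p from 0.0537 to 0.215), and without the breed term, where they were 0.24 to 0.41 and close to those above (adjusted p from 0.0733 to 0.102). The HS call of COL3A1 held in 10 of 26 fits that left out 1 array. The LW minus Creole call of DPT held in 9 of 26 fits that left out 1 array and that of COL1A1 in 16 of 26, and with slide as a fixed block DCN (adjusted p = 0.0510) and COL1A1 (adjusted p = 0.0729) were not called. Of 7 red cell markers, HBB (-0.85, SE 0.21, adjusted p = 0.0110) and EPB42 (-0.38, SE 0.11, adjusted p = 0.0294) fell, while ALAS2 (0.04) and SLC4A1 (0.06), not called, had differences above 0. GP1BB (-0.27) fell among 3 platelet markers tested, PTPRC (0.28) rose among 8 leukocyte markers and ADIPOQ (0.16) rose among 7 adipocyte markers. With probes averaged, GP1BB was -0.12 (adjusted p = 0.0946) and PTPRC 0.12 (adjusted p = 0.150), and the ADIPOQ call held in 14 of 26 fits that left out 1 array. Between LW and Creole, the platelet gene ITGA2B was higher in LW by 0.41 and LEP lower by -1.23, the latter called in 17 of 26 such fits. None of the HS minus TN calls of listed genes named here held with the red cell score as covariate (smallest adjusted p = 0.0934, for DDAH2). Some differences kept their size in that fit, such as those of DDAH2 (0.36), EDNRB (-0.40) and PTPRC (0.30), and others shrank, such as those of ENO1 (-0.06), FLT1 (-0.09) and GP1BB (-0.10). HBB and EPB42 are part of the score, so that fit says nothing of them.

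The mean centred level of the fibroblast list ran from -0.94 to 0.27 in TN and from -0.31 to 0.56 in HS, that of the other endothelial markers from -0.14 to 0.10 in TN and from -0.27 to 0.17 in HS, and that of the pericyte and smooth muscle list from -0.27 to 0.36 in TN and from -0.29 to 0.32 in HS. Creole TN replicate 2 alone gave the lowest TN value of the fibroblast list, the next being -0.36. The same animal gave the highest TN value of the pericyte and smooth muscle list, the next being 0.16. The part of these cell types in the differences of CDH5, KDR and VEGFA was not tested.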

How the data were processed

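RNA of 26 pig SCAT samples was hybridised by the authors to one-colour (Cy3) Agilent porcine arrays, 1 animal per array, on 5 slides that each held both temperatures. Per the file headers, the deposited scanner files give the median pixel intensity of each spot as Agilent Feature Extraction 10.10.1.1 read it, without normalization. The series table deposited by the authors holds log2 quantile-normalized values of 44104 probes. On each array these were correlated with the values normalized here from the scanner files, with a lowest r of 0.999997. The table served as an alternative, but its values are nearly those of the main fit. From the median intensities, without background correction, non-uniform spots were left out, arrays were quantile-normalized, log2 was taken, and spots of a probe were averaged. Of 60305 probes, 44703 were well above background on at least 8 arrays and were tested. As in the study's model, limma 3.58.1 in R 4.3.3 fitted breed and temperature (lmFit, eBayes with trend); the study's random effects (pen, slaughter day, parents) are not in the labels and were left out. Within-breed differences and the interaction came from a model with 6 group means. All tests were two-sided, with Benjamini-Hochberg adjustment over all tested probes. The fit was tested on simulated data.

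Genes were named through RefSeq accession, gene name, synonym or description, and 35918 spots stayed unnamed. The members, the gene lists and the tests were chosen with earlier results of these data known. All 10 members are named with every probe; from each list, the genes called for HS minus TN or LW minus Creole are named, at most 5 per comparison (1 of them is not reported here), and for each member the 3 most alike genes were found. Alternatives were normexp background correction (offset 50), scaling to the 75th percentile, the authors' series table, other filters, no breed term, slide as a fixed or random block, array weights, no trend, probes averaged per gene, the red cell score as covariate, and leaving out each array.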

Additional observations from a re-analysis of the deposited data

Results flagged for a closer look

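In each group of 4 or 5 animals, the gap between the highest or lowest animal and its nearest neighbour was divided by the range of the group and set against Dixon's critical value. Of 155 such groups over the 31 probes, 10 (6.45%) passed it, and chance alone passes about 1 group in 20. These are values, and the cause of none was tested.

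Creole HS replicate 4 was the lowest of its group for VEGFA A_72_P414353 (level 8.95, the next at 9.55, ratio 0.844) and for KDR A_72_P380298 (8.90, the next at 9.85, ratio 0.805). In the same group, VWF A_72_P293294 was lowest in replicate 1 (13.24, the next at 13.74, ratio 0.736) and TEK O3657 was highest in replicate 3 (7.18, the next at 6.81, ratio 0.720). In F1 TN, VEGFA A_72_P414353 was lowest in replicate 3 (8.93, the next at 9.35, ratio 0.950) and CDH5 A_72_P077856 was lowest in replicate 2 (12.11, the next at 12.28, ratio 0.849). In F1 HS, ENG A_72_P232262 was lowest in replicate 3 (11.51, the next at 11.76, ratio 0.717). LW HS replicate 4 was lowest for KDR A_72_P380298 (10.22, the next at 10.67, ratio 0.727) and for VEGFA O11835 (5.7, the next at 5.95, ratio 0.860). In LW TN, NOS3 A_72_P442218 was highest in replicate 2 (6.61, the next at 6.23, ratio 0.934).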

How the results depend on the processing

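The HS minus TN calls of the 10 lead probes (2) ranged from 1 to 2 when 1 array was left out, with 1 call without Creole TN replicate 1 or 3, where CDH5 was lost, were 0 with the red cell score as covariate and were 3 with 75th percentile scaling, where NOS3 was added. Over all tested probes the HS minus TN calls (5445) were 3530 without the breed term and 42 with the red cell score. The LW minus Creole call (1) became 0 with all probes of a gene averaged. The interaction calls over all tested probes (1) were 0 with slide as a fixed block and 2 with array weights, and ranged from 1 to 4 when 1 array was left out. Differences near 0 changed sign without a call: LW minus Creole of CDH5 was -0.037 with 75th percentile scaling, -0.051 with probes averaged and -0.029 to 0.063 when 1 array was left out. LW minus Creole of PECAM1 was -0.033 with probes averaged, and of TEK ran from -0.088 to 0.00050 when 1 array was left out. HS minus TN of TEK was 0.0068 with slide as a fixed block, 0.0089 with probes averaged and -0.039 to 0.029 when 1 array was left out. HS minus TN of VWF was 0.010 with probes averaged and -0.069 to 0.019 when 1 array was left out, and of PECAM1 -0.084 to 0.0056. The VEGFA call held in all but 2 of 12 other settings (probes averaged and red cell score), and the KDR call between LW and Creole in all but 1 of 11 (probes averaged). CDH5 A_72_P310398 was also lost with normexp (adjusted p = 0.0567), 75th percentile scaling (0.0778) and no breed term (0.0543). The causes were not tested. No analysis paired by litter was possible because the labels do not give the litter (the replicate numbers here only name the animals). Slide was fitted as a block instead, and with slide as a fixed block the CDH5 and VEGFA lead probes stayed called.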
